A study of Mus musculus with 4 samples.

Results

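The genes of the contractile apparatus of smooth muscle, and the pair of transcription regulators that drive them, were examined for binding of NR1D1 (REV-ERB alpha) in primary mouse aortic smooth muscle cells. The 10 genes are Acta2, Myh11, Tagln, Cnn1, Smtn, Lmod1, Myocd, Srf, Cald1 and Mylk, of 21887 protein-coding genes in the RefSeq annotation of mm10. Every peak that overlapped the span of one of them, or 50 kb on either side, was taken. This gave 13 of the 7377 peaks of the PBS library and 14 of the 8816 peaks of the vasostatin-2 library.

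The wild-type (WT) cells had been kept for 24 h with PBS or with vasostatin-2, a peptide cut from chromogranin A, and binding was mapped by CUT&Tag, in which an antibody tethers a transposase that releases the DNA beside the bound protein. By their labels there were 4 libraries. In each treatment 1 was made with an antibody to NR1D1 and 1 with IgG. No batch is given in the labels. Only the 2 NR1D1 libraries were used. The labels give neither the number of mice nor that of cultures. With 1 library per treatment there is no replicate error and no test of treatment, so that each difference below is one between 2 libraries, and intervals cover counting error only. The peak lists hold no expression values, so the labelled cell type could not be checked against its markers.

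NR1D1 is a nuclear receptor of the circadian clock that recruits corepressors and silences genes at response elements built on the half-site AGGTCA. Contraction of vascular smooth muscle rests on actin and myosin filaments and the proteins that bind them. Their genes are switched on together by serum response factor (SRF), which binds CArG boxes, and by its coactivator myocardin. Loss of this programme marks the change of smooth muscle cells to a synthetic, proliferating state.

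Peaks that overlapped a RefSeq promoter of these genes (250 bases before to 50 after a start) were found at Srf and Smtn in the PBS list and at Cald1 in the vasostatin-2 list, each in that list only. Those of Srf and Cald1 covered the start, and that of Smtn ended 7 bp before it. The 250 bases before these starts are printed because the peaks overlap them. The summits at Smtn (267 bp before its start) and Cald1 (49 bp after) lay outside these bases. Those of Acta2, the most used contractile marker, are printed for contrast, because no peak of either list lay in its window. Capitals mark matches to the CArG box with up to 1 mismatch, to GGGCGG and to CCAAT, each on both strands, and sequences run 5′ to 3′ on the strand of the gene (RefSeq, GRCm38.p6, the assembly of mm10).
Srf, chr17:46556163-46556412, minus strand: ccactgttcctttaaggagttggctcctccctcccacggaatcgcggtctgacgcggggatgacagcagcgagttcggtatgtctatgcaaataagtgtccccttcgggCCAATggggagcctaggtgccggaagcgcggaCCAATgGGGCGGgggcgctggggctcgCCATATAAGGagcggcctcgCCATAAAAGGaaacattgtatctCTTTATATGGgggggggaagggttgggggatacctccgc
Smtn, chr11:3539293-3539542, minus strand: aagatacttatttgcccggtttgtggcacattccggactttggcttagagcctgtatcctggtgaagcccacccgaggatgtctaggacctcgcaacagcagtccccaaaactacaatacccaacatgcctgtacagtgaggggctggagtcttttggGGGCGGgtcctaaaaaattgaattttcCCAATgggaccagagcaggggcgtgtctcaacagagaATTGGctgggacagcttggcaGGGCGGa
Cald1, chr6:34598254-34598503, plus strand: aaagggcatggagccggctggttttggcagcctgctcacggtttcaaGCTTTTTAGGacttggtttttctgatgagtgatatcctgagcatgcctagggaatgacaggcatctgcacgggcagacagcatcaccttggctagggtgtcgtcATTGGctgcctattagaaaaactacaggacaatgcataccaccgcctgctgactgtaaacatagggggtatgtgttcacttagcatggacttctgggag
Acta2, chr19:34255374-34255623, minus strand: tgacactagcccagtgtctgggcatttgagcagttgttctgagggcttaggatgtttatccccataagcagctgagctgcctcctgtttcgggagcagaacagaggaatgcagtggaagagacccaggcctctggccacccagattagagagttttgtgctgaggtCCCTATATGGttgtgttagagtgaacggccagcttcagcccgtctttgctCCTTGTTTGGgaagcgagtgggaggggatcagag

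In the Srf sequence the CArG box had 2 exact matches, CCATATAAGG at -82 to -73 and CCATAAAAGG at -62 to -53, counted back from -1, the base before the start. A match with 1 mismatch, CTTTATATGG, lay at -39 to -30, and the summit of the PBS peak fell on its first base, 39 bp before the start. An exact CArG match occurred in 1.47% of the 32851 RefSeq promoters and a match with up to 1 mismatch, exact ones included, in 18.6%. Acta2 had 2 matches with 1 mismatch, CCCTATATGG and CCTTGTTTGG, Cald1 had 1 and Smtn 0. The half-site AGGTCA, found in 14.02% of promoters, had 0 matches in the 250 bases before the starts of all 7 genes with a RefSeq promoter entry (Acta2, Cnn1, Smtn, Lmod1, Srf, Cald1 and Mylk). The same held for the longer RORE element (0.332% of promoters) and for CACGTG (6.02%). Among promoters that overlapped a PBS peak AGGTCA was found in 8.49%, RORE in 0.034% and CACGTG in 8.83%. For those that overlapped a vasostatin-2 peak these shares were 8.4%, 0.0545% and 7.58%. GGGCGG was present 2 times at Smtn, 1 time at Srf and 0 times at Cald1 and Acta2. Over all promoters 32.7% held it, against 72.2% of the 2944 that overlapped a PBS peak and 73.6% of the 1834 that overlapped a vasostatin-2 peak. CCAAT, in 33.8% of promoters, was present 2 times at Srf and at Smtn, 1 time at Cald1 and 0 times at Acta2. These matches describe letters only, and the bases at the Smtn and Cald1 summits were not searched. Myh11, Tagln and Myocd were described by their spans alone.

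Srf, which encodes the factor that binds CArG boxes, had the summit with the most fragments of all windows. Its peak at 46552944 to 46553258 on chromosome 17 (PBS list) lay inside the gene, 2998 bp after the start. It had 7.43-fold enrichment over the local background, a -log10 p of 15.9 and a -log10 q of 11.4, each the authors' own value, with 22 fragments at the summit. The vasostatin-2 list held the same site, with the summit 43 bp away, at 5.24-fold, a -log10 p of 8.18 and a -log10 q of 4.32, with 12 fragments. Within its own list the site stood at percentile 84.1 of fold in PBS and 56.3 in vasostatin-2. The tables used here do not tell exons from introns, so peaks inside genes were not assigned to either.

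The peak at the Srf start, 46556161 to 46556409, was in the PBS list alone. It had 4.61-fold enrichment (percentile 31.5), a -log10 p of 7.14 and a -log10 q of 3.60, with 12 fragments over a background of 1.82. Its summit was 2066 bp inside the gene span, which reaches beyond this start. At a background within 10% of that value the smallest summit in the vasostatin-2 list had 9 fragments. No summit with fewer fragments was listed there at such a background, so absence from the list does not show absence of fragments. The window also held a peak in each flank. One lay inside Cul9, a cullin gene, 6.92 kb from the Srf span (PBS, 5.17-fold, -log10 p of 6.90 and -log10 q of 3.39, 7 fragments). The other lay inside Ptk7, a pseudokinase receptor gene of Wnt signalling, 26.5 kb away (vasostatin-2, 6.82-fold, -log10 p of 10.06 and -log10 q of 5.93, 9 fragments).

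Myocd encodes myocardin, the coactivator that directs SRF to smooth muscle genes. Its span of 96.4 kb on chromosome 11 (65173608 to 65269989) held no peak in either list. The nearest PBS peak was 154.6 kb away. One vasostatin-2 peak fell in the window, 44.8 kb from the gene and inside Arhgap44, with 4.65-fold enrichment, a -log10 p of 6.02, a -log10 q of 2.61 and 7 fragments. Of the 2 regulators Srf thus had peaks at its start and inside, and Myocd neither.

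Among filament genes Acta2, which encodes smooth muscle alpha-actin (chromosome 19, 34240336 to 34255585), was the one member with no peak in its window in either list. The nearest peak was 271.8 kb from the span in both lists and was nearest to Lipa. Myh11, which encodes smooth muscle myosin heavy chain (chromosome 16, 14194527 to 14292188), had 1 peak inside the gene in each list, at different sites 28.6 kb apart. The PBS peak at 14237237 to 14237528 had 7.29-fold enrichment, a -log10 p of 11.5 and a -log10 q of 7.37, with 12 fragments. The vasostatin-2 peak at 14266133 to 14266410 had 6.03-fold, 8.52 and 4.61 in the same order, with 8 fragments. These summits were 42.9 and 25.9 kb from the nearer end of the gene. A further PBS peak, with 6.84-fold enrichment, a -log10 p of 11.08, a -log10 q of 7.0 and 13 fragments, lay 34.9 kb outside Myh11 and 313 bp before the start of Marf1, a gene of RNA regulation.

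Mylk encodes myosin light chain kinase, which starts contraction by phosphorylating myosin. Although it had the longest span, 257.2 kb on chromosome 16 (34745199 to 35002436), the nearest PBS peak was 416.5 kb away. The vasostatin-2 list held 2 peaks, both inside the gene. The one at 34998724 to 34998946, 3.61 kb from an end of the span, had the highest fold of the vasostatin-2 peaks in all windows (7.28-fold, percentile 88.3), with a -log10 p of 11.01, a -log10 q of 6.75 and 10 fragments. The one at 34860301 to 34860541 was 75.5 kb after the listed start, with 5.06-fold, 6.76 and 3.18 in the same order and 6 fragments.

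Cald1 and Cnn1 encode caldesmon and calponin, actin-binding proteins that restrain the myosin motor. At Cald1 (chromosome 6, 34598495 to 34775469) the vasostatin-2 peak at 34598329 to 34598632 covered the first of 2 listed starts, with its summit 49 bp after it. It had 6.04-fold enrichment (percentile 73.4), a -log10 p of 8.87 and a -log10 q of 4.91, with 10 fragments. The nearest PBS peak was 134.98 kb from the gene. Cnn1 (chromosome 9, 22099221 to 22109221) had no peak on its span, and its nearest peaks were 13.6 kb (PBS) and 28.1 kb (vasostatin-2) away. Its window nonetheless held 4 PBS and 2 vasostatin-2 peaks, and overlapped 6 other protein-coding genes. In the PBS list these were a peak of 8.42-fold (-log10 p of 14.4, -log10 q of 10.05, 15 fragments), the highest fold of all windows, 1048 bp outside Pigyl, and one of 5.37-fold (7.54 and 3.91, 9 fragments) 39 bp from an end of Pigyl. Another, of 4.92-fold (6.47 and 3.03, 7 fragments), was 33 bp before the start of Ecsit, which encodes a signalling adaptor. The last, of 5.47-fold (8.23 and 4.50, 11 fragments), was 477 bp from an end of Zfp653. Vasostatin-2 peaks overlapped the latter site at 3.77-fold (4.49 and 1.47, 6 fragments) and the site at the end of Pigyl at 4.66-fold (6.20 and 2.76, 8 fragments). The strongest PBS peak of this window was 492 bp from the vasostatin-2 peak at Pigyl and did not overlap it.

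Tagln encodes transgelin (SM22 alpha), an actin-bundling protein, on chromosome 9 (45929628 to 45936058). No peak touched its span. The site shared by both lists 8.04 kb away, inside Sidt2, a lysosomal membrane protein gene, had 6.55-fold in PBS (-log10 p of 10.6, -log10 q of 6.59, 13 fragments) and 6.46-fold in vasostatin-2 (10.1 and 5.98, 12 fragments). The summits were 27 bp apart. A second vasostatin-2 peak, 19.4 kb from Tagln, lay 164 bp before a start of Sidt2 with 4.52-fold enrichment, a -log10 p of 5.74, a -log10 q of 2.38 and 6 fragments.

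Smtn and Lmod1 encode smoothelin, an actin-associated protein of contractile cells, and leiomodin, an actin filament nucleator. At Smtn (chromosome 11, 3517522 to 3539292) the PBS peak at 3539299 to 3539648 had its summit 267 bp before the start, with 6.52-fold enrichment (percentile 73.2), a -log10 p of 10.6, a -log10 q of 6.55 and 13 fragments. The nearest vasostatin-2 peak was 65.98 kb from it, and at a like background the smallest summit of that list had 7 fragments. Another PBS peak lay 2.87 kb from the other end of Smtn, 32 bp before the start of Selenom, a selenoprotein gene (6.17-fold, -log10 p of 9.08, -log10 q of 5.23, 10 fragments). The only vasostatin-2 peak of the window was 44.4 kb away, nearest to Pla2g3, a phospholipase gene (4.34-fold, 5.51 and 2.19, 5 fragments). Lmod1 (chromosome 1, 135324813 to 135368065) had no peak on its span. Peaks of both lists overlapped by 9 bp near the start of Shisa4, 7.34 kb from Lmod1, at 5.70-fold in PBS (8.08 and 4.37, 9 fragments) and 3.80-fold in vasostatin-2 (4.55 and 1.51, 6 fragments). A vasostatin-2 peak 10.06 kb on the other side was nearest to Timm17a, a mitochondrial import gene (4.17-fold, 5.17 and 2.01, 5 fragments).

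**Figure D1:**
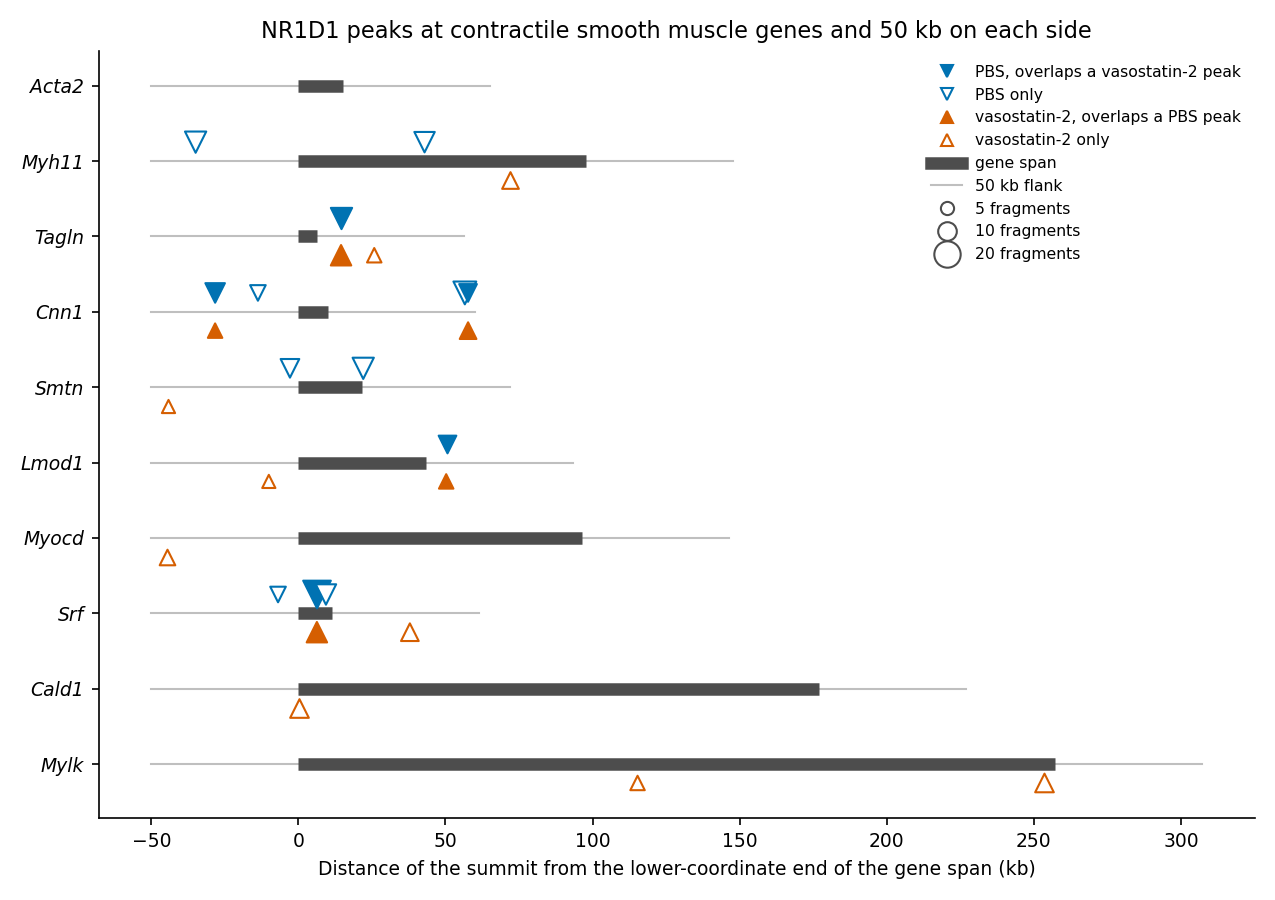
Position of the 13 PBS peaks (triangles pointing down) and 14 vasostatin-2 peaks (triangles pointing up) in kb from the lower-coordinate end of each gene span (dark bar), with the 50 kb flanks as thin lines and marker area in proportion to summit fragments. Filled markers overlap the other list, which holds for 5 peaks of each list, and most markers lie outside the dark bars.

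Most window peaks thus lay outside the contractile gene itself. By summit, 9 of 13 PBS peaks were in the flanks, 3 inside the gene and 1 within 1 kb of an end of the span. In the vasostatin-2 list 9 of 14 were in the flanks, 4 inside and 1 at an end. A summit lay within 1 kb of any RefSeq start for 7 PBS and 4 vasostatin-2 peaks (53.8% and 28.6%, against 34.9% and 20.1% of the whole lists). Of these peaks 5 and 3 overlapped the promoter of a neighbouring gene and not of the contractile gene.

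A peak overlapped the span itself at 2 of the 10 genes in the PBS list (Myh11 and Srf) and at 4 in the vasostatin-2 list (Myh11, Srf, Cald1 and Mylk). Of all protein-coding genes 18.7% and 17.4% had one. A peak overlapped a RefSeq promoter, taken from 250 bases before to 50 after a start, at 2 of the 7 genes with an entry in PBS and at 1 of 7 in vasostatin-2. Of all protein-coding genes with an entry 13.4% and 8.42% had one. Within the window 6 of 10 genes had a PBS peak, against 49.2% of all protein-coding genes and 53.4% of the 15194 whose span was in the range of the members, 6.43 to 257.2 kb. For vasostatin-2 it was 9 of 10 genes, against 50% and 54.2%. Myocd, Cald1 and Mylk had window peaks in that list alone, and no gene had them in PBS alone. This order turned round with a -log10 q of at least 5, where 5 genes kept a PBS peak and 3 a vasostatin-2 peak. Tagln and Srf then had both, at Srf the PBS peak inside the gene and the vasostatin-2 peak inside Ptk7. Myh11, Cnn1 and Smtn had a PBS peak alone, and Mylk a vasostatin-2 peak alone. The share of all protein-coding genes with a peak at this cut was not counted. The median -log10 q of the whole list was 3.76 in PBS and 3.18 in vasostatin-2. The members had a mean of 1.3 PBS and 1.4 vasostatin-2 peaks per window, against 0.938 and 0.915 for genes of like span. With 10 genes, chosen with earlier results of these libraries known, these shares are a description.

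**Figure D2:**
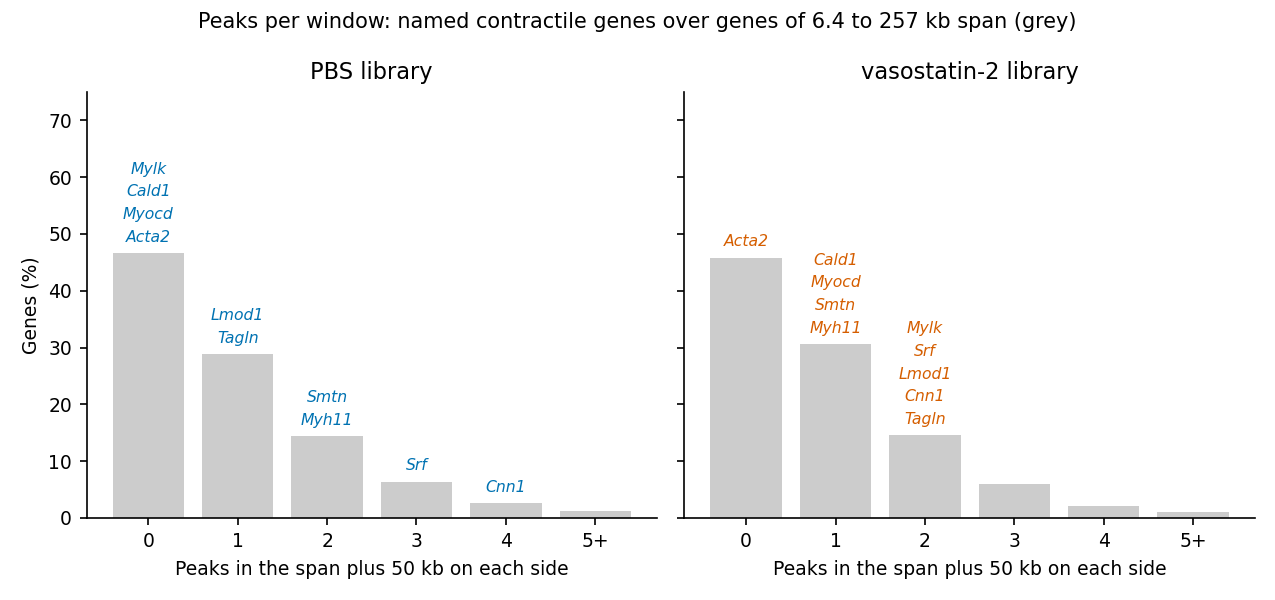
Grey bars give the percent of 15194 protein-coding genes with spans of 6.43 to 257.2 kb by the number of peaks in the span plus 50 kb on each side, for the PBS and the vasostatin-2 library. Gene names are stacked over the bar of their own count, with no meaning of height: 4 contractile genes had no PBS peak, and Acta2 alone had no vasostatin-2 peak.

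In all, the windows covered 1.74 Mb and held 7.49 PBS peaks per Mb (95% Poisson interval 3.99 to 12.8) and 8.06 vasostatin-2 peaks per Mb (4.41 to 13.5). The windows of all protein-coding genes, merged, held 3.78 and 4.20 per Mb. The windows of the members overlapped 1 to 6 other protein-coding genes each, and the part of this gene density in the difference was not tested.

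The PBS window peaks stood mostly in the upper part of their list, and the vasostatin-2 window peaks did not. Their median percentile of fold was 68.3 in PBS and 43.1 in vasostatin-2. Fold enrichment ran from 4.61 to 8.42 with a median of 6.17 in PBS, where the whole list had a median of 5.33. In vasostatin-2 it ran from 3.77 to 7.28 with a median of 4.86, against 5.07. The highest stood at percentile 90.9 in PBS and 88.3 in vasostatin-2. Summits held 7 to 22 fragments (median 12) in PBS and 5 to 12 (median 7.5) in vasostatin-2, against medians of 8 and 7 in the whole lists.

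**Figure D3:**
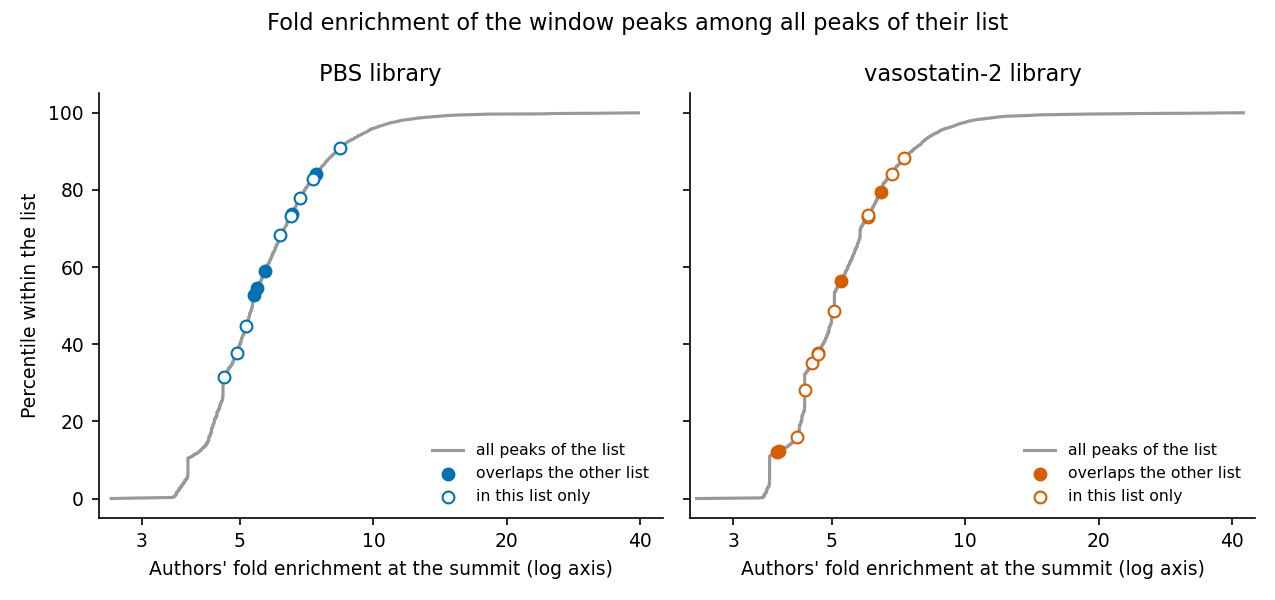
Authors' fold enrichment of each window peak (horizontal, log axis) against its percentile within the list (vertical), with all peaks of the list as the grey line; filled points overlap the other list. The PBS points lie between percentiles 31.5 and 90.9 and the vasostatin-2 points between 12.1 and 88.3.

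Sharing between the lists was close to that of the lists as a whole. Of the 13 PBS peaks 5 overlapped a vasostatin-2 peak (38.5%, 95% Wilson interval 17.7 to 64.5), against 35.6% of the list and 36.7% of peaks in all protein-coding windows. Of the 14 vasostatin-2 peaks 5 did (35.7%, 16.3 to 61.2), against 30% and 33.3%. The Srf site was the only shared one on the span of a contractile gene. By fragments the windows lay on both sides of their list. Of PBS peaks with 4 to 8 fragments 0 of 2 were shared (17.03% in the list), and with 9 to 12 fragments 3 of 6 (45.4%). With 13 to 20 fragments it was 1 of 4 (66.7%), and the shared Srf peak, with 22, lay above these classes. Of vasostatin-2 peaks with 4 to 8 fragments 3 of 9 were shared (15.7% in the list), and with 9 to 12 fragments 2 of 5 (47.4%).

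At all 5 shared sites the vasostatin-2 summit held fewer fragments, although that library was 1.32 times as deep by the background recovered from the peak values. This depth assumes that the background came from the NR1D1 libraries themselves. After scaling for depth 83.8% of all 2628 shared pairs were also lower in vasostatin-2, and 91.3% of those with as many PBS fragments as these sites (9 to 22). The counts were 22 and 12 at Srf, 13 and 12 near Tagln, 11 and 6 at Zfp653, 9 and 8 at Pigyl, and 9 and 6 at Shisa4, PBS first. At Srf the vasostatin-2 library gave 29.3% of the depth-scaled fragments (95% exact binomial interval 15.7 to 46.6). Without scaling it gave 35.3% there (19.7 to 53.5), an interval that included an even split. The scaled intervals take the depth ratio as exact. At the other 4 sites the scaled interval included an even split (near Tagln 41.2%, 22.6 to 62.5). Over the 5 sites together the vasostatin-2 library gave 34.3% after scaling (25.8 to 43.7), from 64 PBS and 44 vasostatin-2 fragments. Over all 2628 PBS peaks with a counterpart it gave 40.04%. The interval of the 5 sites includes the value of the whole list, so the difference at these sites is not told apart from that over the whole list.

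**Figure D4:**
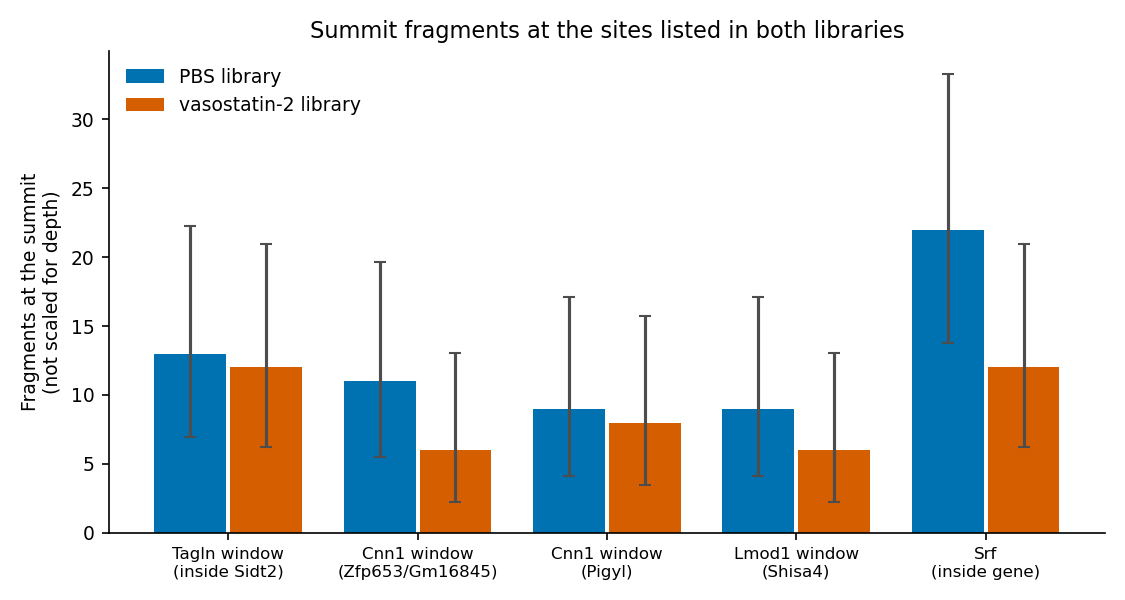
Fragments at the summit, not scaled for depth, at the 5 sites listed in both libraries (bars), with exact 95% Poisson intervals for counting error (lines). The PBS bar is the higher at each site, from 9 against 8 at Pigyl to 22 against 12 at Srf, and the intervals overlap at each.

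Other genes of the pathway were counted by a peak overlapping 3 kb around either end of the span, which 18.1% of protein-coding genes had in PBS and 13.8% in vasostatin-2. By this rule the members counted 2 (Smtn and Srf) and 1 (Cald1) of 10. Of 23 further genes of the contractile apparatus 3 counted in PBS and 1 in vasostatin-2. Vcl, the vinculin gene, had a PBS peak of 10.3-fold and a vasostatin-2 peak of 5.86-fold. Actn1, an actinin gene, had 5.34-fold and Tpm4, a tropomyosin gene, 4.39-fold, both in PBS alone. In the window of 50 kb 16 and 14 of the 23 had a peak, against 49.2% and 50% of all protein-coding genes.

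Regulators of SRF, myocardin and actin signalling counted 9 of 22 in PBS and 10 of 22 in vasostatin-2, 6 of them in both lists. Rhoa, the GTPase that drives actin assembly, had 8.24-fold in PBS and 7.47-fold in vasostatin-2. Mrtfa, a myocardin-related coactivator of SRF, had 6.46-fold and 5.15-fold. The kinase gene Rock1 had 5.89-fold and 5.05-fold. Klf4, a repressor of the contractile programme, had 5.40-fold and 7.32-fold. Gata6 had 5.67-fold and 7.42-fold, the 2 values being from different sites, and its vasostatin-2 peak overlapped another PBS peak. Csrp2 and Fhl1, LIM protein genes, had the same 5.79-fold in vasostatin-2 alone. Fold values of the 2 lists stand side by side here and are not scaled to each other.

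Genes of striated muscle, which are paralogs or markers of another muscle type, counted 0 of 23 in both lists. In the window of 50 kb 10 and 9 of them had a peak, against 49.2% and 50% of all protein-coding genes. Endothelial markers counted 1 of 8 in each list (Nos3), fibroblast markers 0 of 7 in each, and macrophage markers 0 of 6 in PBS and 1 of 6 in vasostatin-2 (Cd68). No difference between these lists of genes was tested.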

How the data were processed

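Both NR1D1 lists come from 1 library each. The submitters' processing notes name MACS2 2.2.7.1, BWA 0.7.17, Trimmomatic 0.39 and the build mm10, without roles or settings. The files lack a header, and their columns were read in narrowPeak order. Fold enrichment, deposited by the authors, is a ratio of summit over local background, and its values follow the caller's form with 1 added to both. Next come the summit's deposited -log10 p and -log10 q. The deposited score, which repeats the -log10 q times 10 without decimals, was not used. Positions are written from 1.

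Fold and -log10 p together fix the number of fragments at a summit through the caller's Poisson formula, solved here to within 0.0005 for 99.97% of PBS and 99.98% of vasostatin-2 peaks. On 2000 simulated peaks 100% were returned. The lowest background and its step gave the relative depth of 1.32. The step was read as the same fixed part of a fragment in both libraries (assumed). It fitted less closely in vasostatin-2, with a mean misfit of 0.00187 steps against 7.63e-05 in PBS. Total fragments, and whether an IgG control entered the background, are not given in the sources used here. If it did, the relative depth would not be that of the NR1D1 libraries alone.

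Peaks were shared when they overlapped by at least 1 bp; the overlap step gave the result of bedtools 2.31.1 on simulated peaks. Spans, starts and sequences came from RefSeq GRCm38.p6, and all 10 members, and all genes of the other lists, were found. Shares carry 95% Wilson intervals, fragment splits exact binomial and counts exact Poisson intervals, computed with scipy 1.17.1. The genes named are the 10 members, the protein-coding genes nearest to a window peak or holding it, and up to 6 per further list (23 contractile apparatus, 22 regulators, 23 striated muscle genes, and 21 endothelial, fibroblast and macrophage markers) by highest fold, with ties. Members, lists and motifs were chosen with earlier results of these data known. Flank, overlap, significance, fragment, gene-end and depth-scaling alternatives were tried.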

Additional observations from a re-analysis of the deposited data

How the results depend on the processing

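Of 38 alternatives 24 stayed within 1.5 times the reported count or inside the interval of the reported share, and 14 moved. The order of the libraries turned under the cuts on -log10 q, fragments and fold, and not with other flanks. With flanks of 10 kb the windows held 8 PBS and 8 vasostatin-2 peaks. Then 5 members had a PBS and 6 a vasostatin-2 peak, and 29.5% and 28% of protein-coding genes had one. With 100 kb these shares of protein-coding genes were 61.3% and 64.3%. With a -log10 q of at least 5 there were 7 PBS and 3 vasostatin-2 peaks (13 and 14 as reported), 5 members had a PBS and 3 a vasostatin-2 peak (6 and 9 as reported), and 14.3% of PBS window peaks (1 of 7) overlapped one of the other list. With at least 8 fragments 11 PBS and 7 vasostatin-2 peaks were left, and 10 and 6 when each list was cut at its median fold. PBS peaks at an end of a member numbered 3 rather than 1 with summits within 3 kb, and 3 with any overlap of 3 kb: the Srf start and the Selenom site near Smtn were added. That counts shift with wider or stricter rules follows by construction. Shares of all genes or peaks at the cuts on -log10 q and fragments were not counted. The cut at the median fold keeps about the same share of each list by construction. The whole lists (7377 PBS and 8816 vasostatin-2 peaks) therefore kept their order at that cut. Whether the turned order is particular to these genes was not tested, and neither was its cause. Without depth scaling the vasostatin-2 share of fragments at the 5 shared sites was 40.7% (31.4 to 50.6), an interval that included an even split. Most of these peaks hold under 13 fragments, which limits every statement that a peak was in 1 list only. No paired analysis was possible because each treatment has 1 NR1D1 library.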
